A study of Mus musculus with 40 samples.

Results

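The comparison sets 4 libraries of wild-type (WT) bone marrow-derived macrophages taken after 24 h of lipopolysaccharide (LPS) against 4 taken after 12 h, chosen by their titles, 8 of the 40 libraries of the study. It covers the late part of the response, in which an inflammatory programme can subside (resolution) and other transcripts can appear (late induction). WT here means OtulinFL/FL mice without a Cre transgene. The knockout (KO) mice, which are OtulinFL/FL LysMCreTg/WT and express Cre from the myeloid Lyz2 (LysM) locus, are used only beside the WT values at the end. Every group therefore carried the loxP-flanked Otulin gene, which encodes a deubiquitinase of linear ubiquitin chains. Marrow cells were grown for 6 days in medium with 30% L929-conditioned medium, a source of the growth factor M-CSF, and received 500 ng/ml of ultrapure LPS from Salmonella minnesota. The other WT groups, of 4 biological replicates each, were taken at 0, 3 and 6 h. No culture kept for 12 or 24 h without LPS is among the samples, so hours of LPS and hours of culture cannot be told apart.

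LPS is sensed by Toll-like receptor 4. Through the adaptor MyD88 the receptor activates NF-kB and MAP kinases, which switch on cytokine and chemokine genes within hours, and through TRIF it induces interferon beta, which acts back on the cells through their interferon receptor. Inhibitors that are themselves induced, such as IkB proteins, SOCS proteins, dual-specificity phosphatases and interleukin 10, then restrain these pathways. Macrophages also shift towards glycolysis and itaconate synthesis and change their lipid and iron handling while activated.

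RNA was measured by 3′ tag sequencing, which places its reads at the poly(A) end of each mRNA, so levels are given as CPM, a count scaled to library size, with no length term. Library totals ran from 4007478 to 6195781 counts at 12 h and from 4209612 to 6166312 at 24 h. Otulin was at 34.9, 34.6, 30.7 and 33.1 CPM in the 12 h libraries and at 37.6, 36.2, 28.9 and 28.2 in the 24 h libraries, with an overlap. The 10 macrophage markers checked were all detected, with a summed level of 6571 to 8593 CPM at 12 h and 6629 to 8452 at 24 h. Single members did not all follow the sum. Fcgr1 ran from 696 to 715 CPM at 12 h and from 602 to 636 at 24 h. Csf1r ran from 476 to 632 CPM and then from 413 to 471. Both were lower at 24 h with no overlap, and the groups of the other members overlapped. Lyz2, which encodes lysozyme, was at 3642, 2712, 2316 and 2759 CPM at 12 h and 3648, 2796, 2506 and 3175 at 24 h and was not called (edgeR adjusted p = 0.614). In bulk RNA, fewer cells of a type and less RNA per cell cannot be told apart.

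Between 12 and 24 h many WT genes changed in each direction. Of 12151 genes tested, 2317 (19.1%) were higher at 24 h and 2493 (20.5%) were lower at an edgeR quasi-likelihood adjusted p under 0.05, which is the rule behind every gene called here. Changes past 2-fold were fewer, with 385 genes higher (3.17%) and 549 lower (4.52%). The median log2 fold change over all genes tested was 0.00. Of the called genes 48.2% were higher. With library totals in place of TMM scaling all log2 fold changes moved up by about 0.10, and the share of called genes that were higher was 63.0%, so the balance of higher and lower genes follows the scaling.

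Counting early changes of any size, most of the genes that fell had been called higher early, and most that rose had been called lower early. Genes were classed by their calls at 3 h and 6 h against 0 h, which compare groups other than those of 12 h and 24 h. These calls came from the same fit as the calls at 24 h against 12 h. The filter, the scaling and the estimate of spread therefore rest on all WT libraries, and the classes are not independent of the later calls. Samples with the same replicate number may also share an origin, which the labels do not give. By 3 or 6 h, 4094 genes had been called higher (33.7% of those tested) and 4859 lower (40%), with a further 160 called in both directions. Of the 4094 early higher genes, 1635 (39.9%) fell from 12 to 24 h and 392 (9.57%) rose, with a median log2 fold change of -0.19. Of the 4859 early lower genes, 1427 (29.4%) rose and 430 (8.85%) fell, with a median of 0.18. Among the 3038 genes with no early call, 462 (15.2%) rose and 386 (12.7%) fell. Without TMM scaling these 6 counts were 943, 238, 2632, 673, 238 and 196. When an early change past 2-fold was required, 995 early higher genes fell and 745 early lower genes rose. Then 1335 genes without such a call fell and 1437 rose, so the majorities held only when early changes of any size counted. Leaving out replicate 3 at all times left 229 early higher genes that rose and 260 early lower genes that fell, and leaving out replicate 2 left 263 of the latter.

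**Figure D1:**
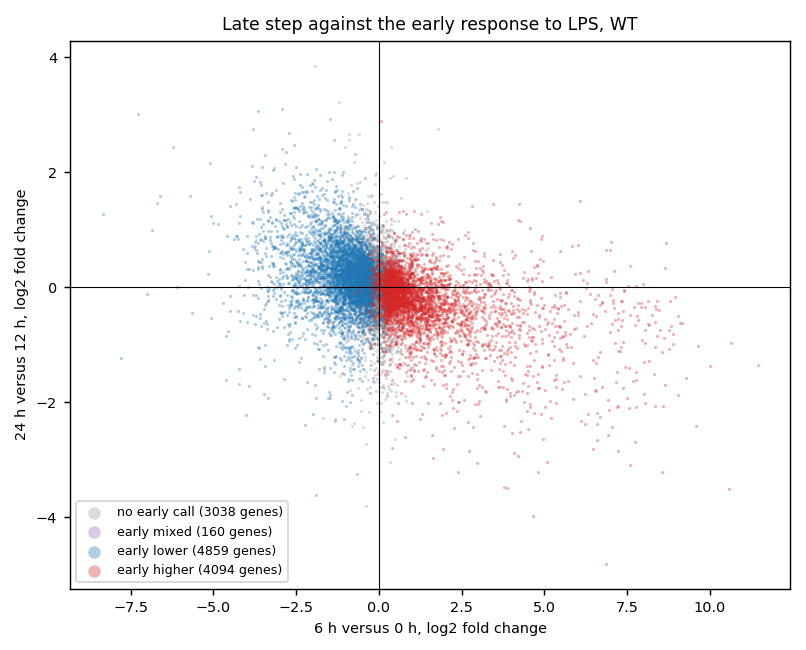
Each point is 1 of 12151 genes, with its log2 fold change at 6 h against 0 h on the horizontal axis and at 24 h against 12 h on the vertical axis, in WT. Early higher genes (4094) lie mostly below the horizontal line, with a median of -0.19, and early lower genes (4859) mostly above it, with a median of 0.18.

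The return was incomplete for many genes. Among the 1635 early higher genes that fell, the highest mean was at 3 h for 345, at 6 h for 896 (54.8%) and at 12 h for 394. Against 0 h, 920 of them (56.3%) were still called higher at 24 h and 357 were called lower, beside 34.5% and 35.4% of all genes tested. That comparison shares the 24 h libraries with the step, so these counts only describe where the genes stood. The same set had a median log2 fold change against 0 h of 1.00 at 12 h and of 0.42 at 24 h. Among the 1427 early lower genes that rose, 454 were above 0 h at 24 h, 503 below and 470 not called. The 462 genes that rose with no early call had their highest mean at 24 h in 413 cases (89.4%), and 343 of them were above 0 h.

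The 10 genes with the largest falls were all early higher genes. Edn1, which encodes the vasoconstrictor peptide endothelin 1, stood at 89.6, 61.3, 68.6 and 28.1 CPM in the 4 libraries at 12 h and at 8.20, 7.02, 4.55 and 2.35 CPM at 24 h. All 24 h libraries lay below all 12 h libraries, and the level fell by 3.50 ± 0.36 (SE) on the log2 scale (edgeR adjusted p = 1.12e-06). It had risen from 0.21 CPM at 0 h to a mean of 341 CPM at 6 h. Ch25h, which encodes cholesterol 25-hydroxylase, was at 33.8, 14.3, 22.6 and 4.55 CPM at 12 h and 3.13, 3.62, 1.88 and 1.41 CPM at 24 h. It fell by 2.93 ± 0.66 on the log2 scale (edgeR adjusted p = 0.00213), with the widest scatter at 12 h, where replicate 4 was the lowest library. Upp1, a uridine phosphorylase, was at 20.4, 34.1, 32.1 and 23.0 CPM and then at 4.58, 5.43, 4.55 and 2.82 CPM, groups far apart, and fell by 2.65 ± 0.23 (edgeR adjusted p = 2.27e-09). The groups did not overlap for Cavin1, a coat protein of caveolae, which fell by 2.80 ± 0.30, for Angpt1, the ligand of the receptor Tie2, which fell by 2.69 ± 0.36, or for Cnn3, an actin-binding calponin, which fell by 2.43 ± 0.35. Ak4, a mitochondrial adenylate kinase, fell by 2.43 ± 0.23 and Slamf1, a receptor of leukocytes, fell by 2.38 ± 0.39, again with no overlap. With Il10, described below, these are 9 of the 10 lowest by the naming rule, which required no overlap of the groups and a mean of 5 CPM or more.

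The 10 genes with the largest rises, named by the same rule, had mostly been lower early. That rule required no overlap, so their lack of overlap follows from the choice. Phlda3, a p53 target that restrains the kinase Akt, was at 5.17, 3.30, 1.66 and 5.56 CPM at 12 h and at 20.0, 13.8, 22.1 and 27.2 CPM at 24 h. Every 24 h library was above every 12 h library, and the gene rose by 2.47 ± 0.28 on the log2 scale (edgeR adjusted p = 2.46e-07), from a low of 2.33 CPM at 6 h to a mean of 20.8 CPM, above its 14.1 CPM at 0 h. Cxcr4, the receptor for the chemokine CXCL12, was at 3.27, 2.20, 5.65 and 4.80 CPM and then 19.3, 12.9, 16.8 and 26.3 CPM and rose by 2.15 ± 0.23 (edgeR adjusted p = 1.38e-07). Its 24 h mean of 18.8 CPM was far under the 137 CPM at 0 h, so it had regained only a small part of its starting level. Sik1, a salt-inducible kinase, was at 5.99, 7.97, 6.81 and 11.4 CPM and then 33.0, 23.3, 36.7 and 34.5 CPM, a rise of 2.00 ± 0.18 (edgeR adjusted p = 4.9e-09) to well above its 6.10 CPM at 0 h. Rragd, a lysosomal GTPase that acts on mTORC1, rose by 1.98 ± 0.19, Psrc1, a protein of the mitotic spindle, by 2.01 ± 0.39, and Slc2a3, the glucose transporter GLUT3, by 1.93 ± 0.23, all 3 after an early fall. The RING finger gene Rnf150 rose by 2.14 ± 0.20 and Spaca9 by 1.96 ± 0.27, also after an early fall and with no overlap.

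Late induction without an early call was seen for Ptprm, a receptor tyrosine phosphatase. It was at 5.99, 3.02, 4.15 and 4.80 CPM at 12 h and 15.9, 21.1, 18.0 and 26.5 CPM at 24 h, and rose by 2.18 ± 0.23 (edgeR adjusted p = 4.46e-08) after means of 2.18 to 2.67 CPM up to 6 h. Dnah2, an axonemal dynein heavy chain, rose by 1.78 ± 0.29 from a low level, and 3 histone genes rose with it. Hist1h2bc was at 89.9, 84.4, 78.6 and 114 CPM at 12 h and 292, 297, 308 and 373 CPM at 24 h, a rise of 1.80 ± 0.11 with narrow groups (edgeR adjusted p = 3.63e-12). The other histone genes were Hist1h4i, which rose by 1.95 ± 0.24, and Hist2h2aa1, which rose by 1.91 ± 0.45. Histone genes have near-identical copies that can share tags, so which copy carried these tags is uncertain.

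**Figure D2:**
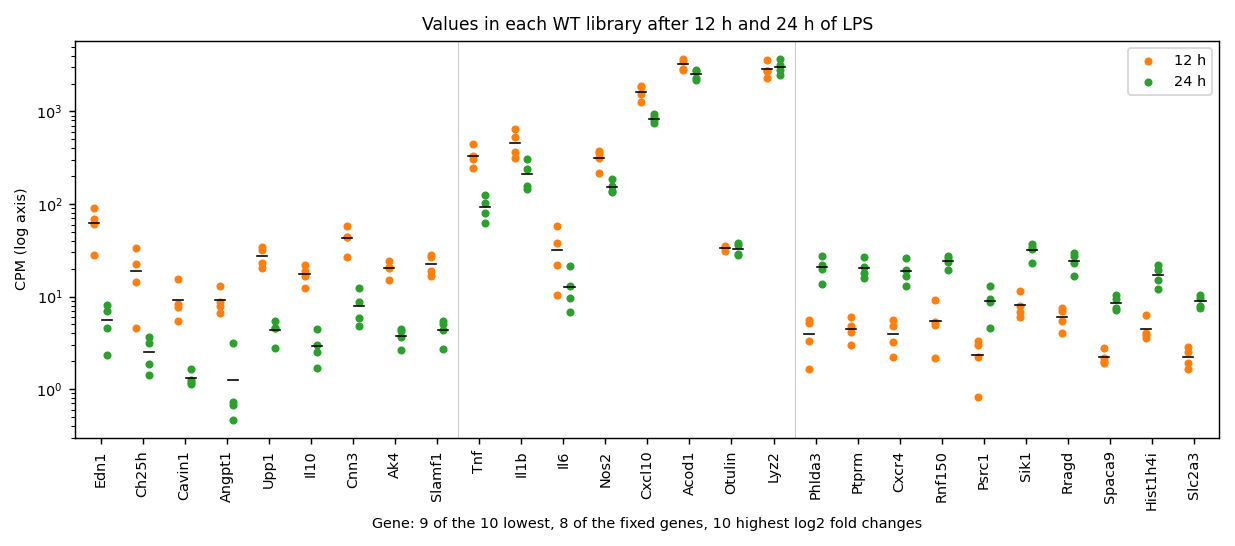
CPM on a log axis for 27 genes in each of the 4 WT libraries at 12 h (orange) and at 24 h (green), with a bar at the mean. The 9 genes on the left lie lower at 24 h and the 10 on the right lie higher, both with no overlap, which the naming rule required of them. Acod1, Otulin, Lyz2 and Il6 in the middle overlap.

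Most cytokine genes fell, and 14 of 18 were still called higher than at 0 h. Of 18 inflammatory cytokine genes tested, 11 fell (61.1%) and 1 rose (5.56%), beside 20.5% and 19.1% of all genes. These shares of all genes are the background for every list count of the step from 12 to 24 h below. Early calls have their own background, with 33.7% of all genes called higher and 40% lower. For calls at 24 h against 0 h it is 34.5% higher and 35.4% lower. The median log2 fold change of the list was -1.06, where all genes had 0.00. With the replicate number as a block the counts were 14 and 2. Tnf, the founding member of the TNF family, was at 448, 330.4, 304 and 246 CPM at 12 h and 104, 127, 80.1 and 63.1 CPM at 24 h, and fell by 1.83 ± 0.20 on the log2 scale (edgeR adjusted p = 1.85e-06). Its 24 h mean of 93.4 CPM was still above the 26.9 CPM at 0 h. Il1b, the inflammasome-processed cytokine, was at 643, 534, 311 and 361 CPM and then 304, 238, 144 and 157 CPM and fell by 1.13 ± 0.26 (edgeR adjusted p = 0.00216). Neither gene overlapped between the groups. Il6, a cytokine of the acute phase, was at 57.7, 21.7, 38.4 and 10.4 CPM and then 21.5, 12.9, 9.72 and 6.81 CPM, and these groups overlapped. Its fall by 1.37 ± 0.52 passed narrowly (edgeR adjusted p = 0.047) and lost its call when any of 5 of the 8 libraries was left out (12 h replicates 1 and 3, 24 h replicates 2, 3 and 4), with an edgeR adjusted p of up to 0.171. Without TMM scaling its edgeR adjusted p was 0.06.

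The cytokines that fell included a brake on inflammation and a survival factor. Il10, the cytokine that restrains macrophage activation, was at 12.3, 22.0, 16.6 and 19.0 CPM at 12 h and 1.69, 2.49, 2.98 and 4.46 CPM at 24 h, and fell by 2.57 ± 0.34 (edgeR adjusted p = 6.69e-06). Il27, a subunit of a heterodimeric cytokine that acts on T cells, was at 45.5, 47.3, 54.8 and 41.5 CPM and then 23.1, 21.7, 27.6 and 18.8 CPM and fell by 1.04 ± 0.17. Csf1, which encodes the growth factor M-CSF, fell by 1.15 ± 0.19 (edgeR adjusted p = 7.14e-05) to a mean of 21.8 CPM, under the 34.8 CPM at 0 h. The 1 member that rose was Tnfsf15, by 0.64.

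Chemokine genes fell as well. Of 20 tested, 15 fell (75%, beside 20.5% of all genes) and 0 rose, with a median of -0.92. Ccl4, a chemokine that attracts monocytes and T cells, was at 478, 466, 391 and 375 CPM at 12 h and 128, 156, 119 and 113 CPM at 24 h and fell by 1.73 ± 0.11 (edgeR adjusted p = 3.24e-11). Ccl3, a close relative of Ccl4, was at 285, 226, 208 and 161 CPM and then 76.2, 75.2, 54.4 and 45.8 CPM and fell by 1.81 ± 0.20, back to near its 46.3 CPM at 0 h. Cxcl10, an interferon-induced ligand of CXCR3, was at 1869, 1856, 1560 and 1256 CPM and then 799.8, 934, 866 and 751 CPM. It fell by 0.96 ± 0.23 (edgeR adjusted p = 0.00354) and at 838 CPM remained far above the 12.9 CPM at 0 h. Ccl9, at 1169, 1169, 1203 and 1183 CPM and then 694, 651, 614 and 612 CPM, had a narrow 12 h group and fell by 0.88 ± 0.10. Ccl6 fell by 0.75 ± 0.12.

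**Figure D3:**
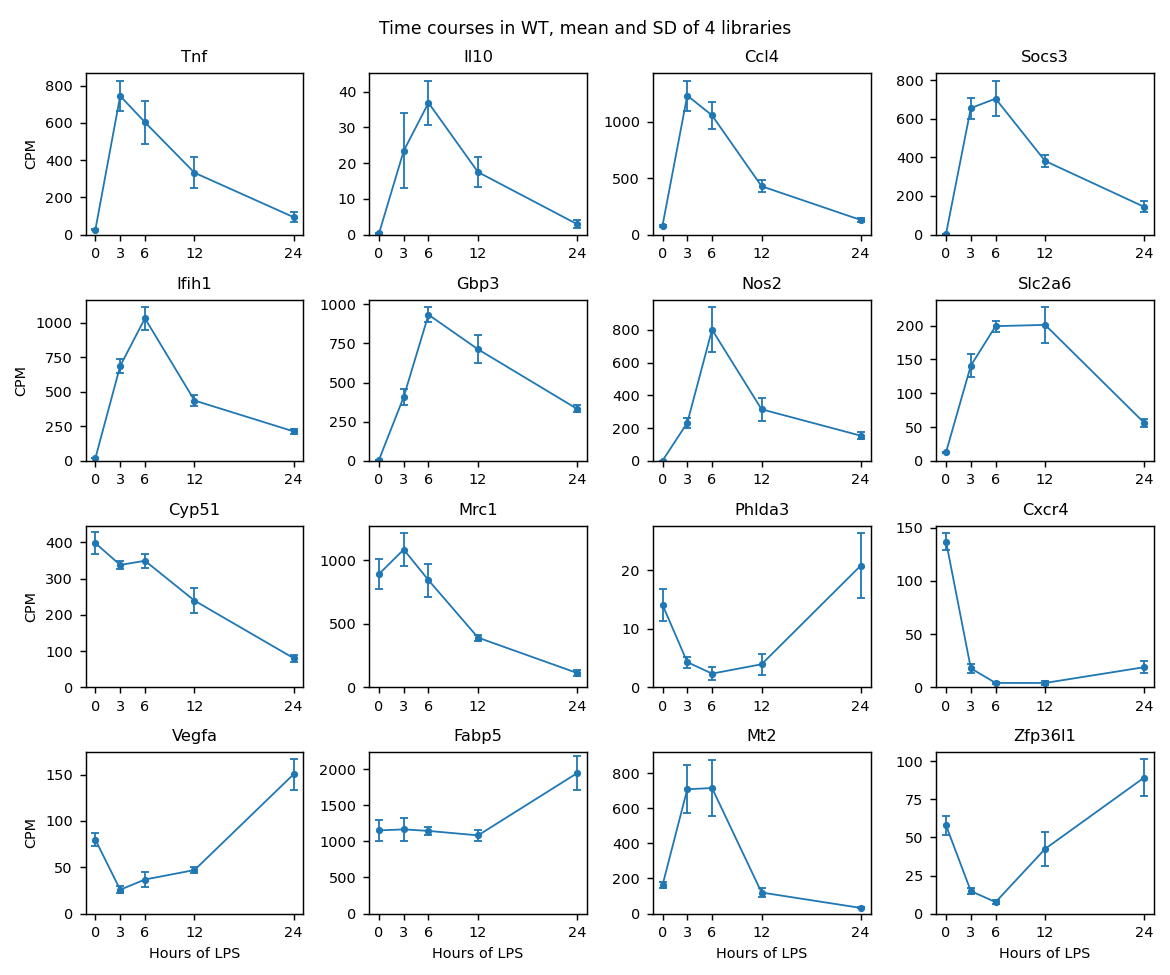
Mean CPM and SD of 4 WT libraries at 0, 3, 6, 12 and 24 h of LPS for 16 genes, with linear axes from 0. Tnf and Ccl4 have their highest mean at 3 h and Il10 at 6 h, while Phlda3, Vegfa, Fabp5 and Zfp36l1 have their highest mean at 24 h.

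The NF-kB genes, which encode the subunits of the factor and the inhibitors it induces, fell by a smaller median. Of 23 tested 14 fell (60.9%, beside 20.5% of all genes) and 1 rose, with a median of -0.33. All 23 had been called higher early. Nfkbie, which encodes the inhibitor IkB epsilon, was at 61.3, 63.2, 66.0 and 56.9 CPM at 12 h and 36.7, 33.7, 33.9 and 31.0 CPM at 24 h, and fell by 0.87 ± 0.08 (edgeR adjusted p = 1.29e-08). Nfkb2, which encodes p100, was at 109, 126, 102 and 114 CPM and then 61.5, 60.7, 66.3 and 64.8 CPM and fell by 0.83 ± 0.08. The inhibitor gene Nfkbiz fell by 0.87 ± 0.12 and Nfkbib by 0.46 ± 0.07, all with no overlap. Birc2, a ubiquitin ligase of the pathway, was the 1 member that rose, by 0.43. The RefSeq promoter window of Nfkbie, from 250 bases before its start to 50 after, lies at chr17:45555450-45555749 on the + strand (GRCm38.p6). It is printed because it holds 1 match to the NF-kB motif, shown in capitals.
Nfkbie: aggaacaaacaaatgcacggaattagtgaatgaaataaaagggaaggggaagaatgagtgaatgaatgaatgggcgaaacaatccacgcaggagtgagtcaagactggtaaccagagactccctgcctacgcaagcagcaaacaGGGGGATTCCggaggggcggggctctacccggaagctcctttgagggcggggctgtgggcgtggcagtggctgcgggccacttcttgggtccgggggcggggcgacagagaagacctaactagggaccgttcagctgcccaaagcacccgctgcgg

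Of the 22 genes tested that encode brakes on Toll-like receptor signalling and on inflammatory mRNA, 9 fell (40.9%) and 3 rose (13.6%). Among all genes 20.5% fell and 19.1% rose, and the median of the list was -0.12. Socs3, an inhibitor of gp130 receptor signalling, was at 414, 385, 388 and 339 CPM at 12 h and 156, 173, 140.5 and 104 CPM at 24 h and fell by 1.41 ± 0.12 (edgeR adjusted p = 3.46e-09). Socs1, an inhibitor of interferon receptor signalling, was at 145, 146, 137 and 97.3 CPM and then 33.3, 39.4, 39.8 and 40.1 CPM and fell by 1.78 ± 0.14. Dusp2, a phosphatase of MAP kinases, was at 111, 124, 122 and 121 CPM and then 31.6, 37.6, 30.6 and 29.3 CPM and fell by 1.89 ± 0.11 (edgeR adjusted p = 1.72e-12). All 3 inhibitors had been called higher early. Zfp36l1, an RNA-binding protein that promotes decay of AU-rich mRNA, went the other way, from 27.0, 41.2, 51.4 and 50.6 CPM to 74.8, 86.0, 102 and 94.3 CPM, a rise of 1.06 ± 0.14 (edgeR adjusted p = 2.07e-06). The other members that rose were Pdcd4, by 1.07, and Dusp4, by 0.80. Of 22 immediate early factors 4 rose and 4 fell (18.2% each), near the 19.1% and 20.5% of all genes. Their median of -0.05 turned to 0.05 without TMM scaling. Klf10 rose by 1.44 ± 0.12, Egr1 by 1.09 ± 0.21 and Jund by 0.68 ± 0.07, while Ier3 fell by 0.82 ± 0.14.

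Genes of the type I interferon response fell in 21 of 42 cases (50%, beside 20.5% of all genes) and stayed above 0 h. All 42 had been called higher early, 2 rose and 19 were not called, with a median of -0.30. Without TMM scaling 12 fell and 4 rose. Against 0 h all 42 were still called higher at 24 h, with a median log2 fold change of 4.51. Ifih1, which encodes the double-stranded RNA sensor MDA5, was at 436, 493, 430.1 and 390.3 CPM at 12 h and 194, 237, 223 and 201 CPM at 24 h, and fell by 1.03 ± 0.08 (edgeR adjusted p = 4.2e-10). Eif2ak2, which encodes the RNA-activated kinase PKR, was at 211, 219, 219.5 and 199 CPM and then 85.1, 111, 112 and 111 CPM and fell by 1.01 ± 0.09. The groups of each gene did not overlap, and the means at 6 h had been 1033 CPM for Ifih1 and 382 CPM for Eif2ak2, above those at 12 h. Samd9l fell by 0.64 ± 0.09 and Oas1a, an oligoadenylate synthetase, by 0.65 ± 0.09. The 2 members that rose were Oasl1, by 0.33, and Oas3, by 0.27, other members of the synthetase family.

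Interferon gamma-inducible genes, a list made up mostly of GTPases that attack pathogen vacuoles, also mostly fell. Of 18 tested, among them the transcription factors Irf1 and Irf8, 15 fell (83.3%, beside 20.5% of all genes) and 1 rose. Their median was -0.70, and all 18 were still above 0 h. Gbp3, a guanylate-binding protein, was at 770.2, 774, 719.7 and 584 CPM at 12 h and 308, 349.5, 352 and 317 CPM at 24 h and fell by 1.1 ± 0.10 (edgeR adjusted p = 4.89e-09). Igtp, an immunity-related GTPase also called Irgm3, was at 414, 461, 376 and 367 CPM and then 201, 262, 234 and 240.3 CPM and fell by 0.79 ± 0.09. Ifi47 fell by 0.67 ± 0.08 and Gbp7 by 0.73 ± 0.10. Irf8, a transcription factor of the myeloid lineage, was the 1 member that rose, by 0.42. Several of these genes have close copies whose tags may be shared, so values of single members are less certain. The promoter windows of Ifih1 (chr2:62646206-62646505, - strand) and Igtp (chr11:58199306-58199605, + strand) in RefSeq's GRCm38.p6 are shown with matches to the interferon response motif GAAANNGAA, on either strand, in capitals.
Ifih1: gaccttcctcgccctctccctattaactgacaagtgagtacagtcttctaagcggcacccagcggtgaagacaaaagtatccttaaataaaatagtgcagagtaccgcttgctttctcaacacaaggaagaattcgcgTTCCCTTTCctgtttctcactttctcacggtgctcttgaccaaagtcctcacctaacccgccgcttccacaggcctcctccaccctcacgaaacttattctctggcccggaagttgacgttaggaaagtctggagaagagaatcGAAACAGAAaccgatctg
Igtp: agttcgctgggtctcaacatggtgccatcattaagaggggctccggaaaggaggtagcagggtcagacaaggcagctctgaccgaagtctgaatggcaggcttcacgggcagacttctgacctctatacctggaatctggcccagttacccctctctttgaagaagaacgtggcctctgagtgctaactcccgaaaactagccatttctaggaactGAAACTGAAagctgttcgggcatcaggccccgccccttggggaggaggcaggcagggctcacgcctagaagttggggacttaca

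Class I antigen presentation genes changed in both directions. Of 19 tested 10 fell (52.6%) and 5 rose (26.3%, or 3 genes with DESeq2 size factors), beside 20.5% and 19.1% of all genes. Their median was -0.21, and all 19 were above 0 h at 24 h. Psmb10, an immunoproteasome subunit, was at 266, 273, 241 and 259 CPM at 12 h and 119, 108, 108 and 108 CPM at 24 h and fell by 1.23 ± 0.08 (edgeR adjusted p = 6.23e-12). Psme2, a proteasome activator subunit, fell by 0.68 ± 0.08 and Nlrc5, the transactivator of class I genes, by 0.74 ± 0.09. The 5 members that rose were all class I heavy chains, namely H2-Q7, H2-M3, H2-K1, H2-T22 and H2-D1. H2-Q7 was at 86.9, 103, 106 and 105 CPM and then 137, 151, 163 and 168 CPM and rose by 0.62 ± 0.09 (edgeR adjusted p = 3.96e-06), and the other 4 rose by 0.20 to 0.50. The division by role was noticed after the values were seen, and these heavy chains are near copies that can share tags. Of 15 genes of class II presentation and costimulation 5 fell (33.3%) and 1, H2-Eb1, rose by 0.57. Their median of -0.08 turned to 0.02 without TMM scaling, when 4 rose. Cd40, the receptor of T cell help, was at 636, 543, 494 and 488 CPM and then 196, 151, 186 and 162 CPM and fell by 1.63 ± 0.10 (edgeR adjusted p = 6.98e-12). Cd83, a marker of activated antigen-presenting cells, fell by 1.77 ± 0.17, the ligand Icosl by 1.1 ± 0.20 and Cd86 by 0.66 ± 0.12.

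Of 13 genes of arginine, nitric oxide and itaconate metabolism 4 fell (30.8%) and 3 rose (23.1%), beside 20.5% and 19.1% of all genes. Nos2, which encodes the inducible nitric oxide synthase, was at 372, 312, 358 and 216 CPM at 12 h and 156, 138, 185 and 135 CPM at 24 h, and fell by 1.03 ± 0.17 (edgeR adjusted p = 0.000135). Slc7a2, a transporter of arginine, was at 275, 236, 184 and 188 CPM and then 56.2, 48.9, 39.5 and 38.7 CPM and fell by 2.27 ± 0.16 (edgeR adjusted p = 2.87e-09). Gch1, which makes the cofactor of nitric oxide synthase, fell by 0.85 ± 0.08. Acod1, the itaconate-producing enzyme, was at 3713, 3506, 2881 and 2793 CPM and then 2824, 2769, 2305 and 2202 CPM, which overlapped, and its log2 fold change of -0.35 ± 0.19 did not pass (edgeR adjusted p = 0.165). Asl, argininosuccinate lyase, rose by 0.91 ± 0.14 from 13.1, 12.9, 14.6 and 11.9 CPM to 28.5, 24.0, 24.3 and 22.8 CPM.  Markers of alternative activation fell in 7 of 12 cases (58.3%) and rose in 1, with a median of -0.71. With the replicate block 2 rose. Mrc1, the mannose receptor, was at 364, 379.6, 404 and 416 CPM at 12 h and 84.9, 101, 119 and 143 CPM at 24 h, fell by 1.80 ± 0.14 (edgeR adjusted p = 4.01e-09) and was far under its 893 CPM at 0 h. Fn1, fibronectin, fell by 1.68 ± 0.27, Tgm2, a transglutaminase, by 1.21 ± 0.08, and Clec10a, a lectin, by 0.91 ± 0.20 with overlapping groups.

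Most glycolysis genes fell, and 8 of 19 genes of the tricarboxylic acid cycle rose. Of 21 glycolysis genes tested 13 fell (61.9%, beside 20.5% of all genes) and 0 rose, with a median of -0.31. The glucose transporter gene Slc2a3, which is not in this list, rose, as given above. Slc2a6, a hexose transporter, was at 234, 211, 182 and 177 CPM at 12 h and 61.0, 48.0, 60.4 and 55.9 CPM at 24 h and fell by 1.83 ± 0.10 (edgeR adjusted p = 4.94e-13). Slc2a1, the glucose transporter GLUT1, was at 123, 127, 100.5 and 116 CPM and then 67.0, 64.5, 54.9 and 53 CPM and fell by 0.96 ± 0.09, to a level close to its 63.4 CPM at 0 h. Pfkp, a phosphofructokinase, fell by 0.72 ± 0.07 and the hexokinase Hk1 by 0.57 ± 0.06. Among 19 tricarboxylic acid cycle genes 8 rose (42.1%, beside 19.1% of all genes) and 1 fell, with a median of 0.17. The counts were 13 and 0 without TMM scaling and 5 and 1 with DESeq2 size factors. Idh3b, a subunit of isocitrate dehydrogenase, rose by 0.44 ± 0.08, and Ogdh, a subunit of the oxoglutarate dehydrogenase complex, rose by 0.49 ± 0.09. Dlst, another subunit of that complex, rose by 0.38 ± 0.07 and the malate dehydrogenase Mdh2 by 0.36 ± 0.07, all with no overlap.

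Respiratory chain genes are encoded in the nucleus and in the mitochondrion. Of 38 nuclear genes for oxidative phosphorylation 7 rose and 5 fell, with a median of 0.05, near the background. Without TMM scaling 9 rose and 2 fell, and with DESeq2 size factors 4 rose and 6 fell. Ndufa6, a subunit of complex I, rose by 0.46 ± 0.07 and Sdhb, a subunit of complex II, by 0.41 ± 0.07, while Cycs, cytochrome c, fell by 0.45 ± 0.07 and Cox5b by 0.40 ± 0.08. Of the 13 mitochondrially encoded transcripts 9 fell (69.2%, beside 20.5% of all genes) and 0 rose, with a median of -0.51. Without TMM scaling 9 fell and 1 rose, and with the replicate block 10 fell and 1 rose. mt-Nd3 was at 299, 285, 290.1 and 204 CPM at 12 h and 63.9, 83.3, 74.9 and 43.9 CPM at 24 h and fell by 2.01 ± 0.18 (edgeR adjusted p = 7.05e-08). mt-Nd1 was at 1324, 1892, 1588 and 1429 CPM and then 841, 824, 818 and 759 CPM and fell by 0.94 ± 0.10, mt-Nd2 fell by 0.76 ± 0.10, and mt-Nd4l fell by 1.28 ± 0.14. These 4 encode complex I subunits. Targets of the hypoxia factor HIF-1 were divided, with 6 of 19 higher and 6 lower (31.6% each, beside 19.1% and 20.5% of all genes). Their median of -0.05 turned to 0.05 without TMM scaling. Vegfa, the vascular growth factor, was at 45.5, 48.9, 50.2 and 43.2 CPM at 12 h and 170, 157, 142 and 132 CPM at 24 h and rose by 1.67 ± 0.12 (edgeR adjusted p = 1.06e-10). Mxi1, a MYC antagonist, rose by 0.94 ± 0.14, whereas Pdk1, a kinase that restrains pyruvate oxidation, fell by 1.01 ± 0.12 and Ndrg1 by 0.96 ± 0.11.

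Cholesterol synthesis was among the lists with the highest share of members called in 1 direction. Of 23 genes tested 18 fell and 0 rose, with a median of -0.80, beside 20.5% of all genes that fell. With the replicate block 1 member rose. Hmgcs1, which makes the precursor of mevalonate, was at 567, 502, 578 and 599 CPM at 12 h and 291, 249, 297 and 314 CPM at 24 h and fell by 0.96 ± 0.08 (edgeR adjusted p = 1.56e-09). Cyp51, a sterol demethylase, was at 249.5, 194, 237 and 276 CPM and then 85.4, 65.9, 87.0 and 83.1 CPM and fell by 1.57 ± 0.10 (edgeR adjusted p = 3.61e-12). Sqle, squalene epoxidase, was at 119.6, 112, 119.8 and 150.4 CPM and then 67.5, 54.3, 59.7 and 61.2 CPM and fell by 1.05 ± 0.10, and the desaturase Sc5d fell by 1.05 ± 0.10. At 24 h all 4 lay below their 0 h means of 551, 398, 249 and 203 CPM. In this list 20 of 23 genes were called lower at 24 h than at 0 h, in a comparison that shares the 24 h libraries. The promoter window of Hmgcs1 (chr13:119690101-119690400, + strand, GRCm38.p6) is printed with 1 match to the sterol regulatory motif TCACNCCAC and 4 to the NF-Y motif CCAAT, read on either strand, in capitals. Of the 16 windows of this list, it is the only one that holds the sterol motif.
Hmgcs1: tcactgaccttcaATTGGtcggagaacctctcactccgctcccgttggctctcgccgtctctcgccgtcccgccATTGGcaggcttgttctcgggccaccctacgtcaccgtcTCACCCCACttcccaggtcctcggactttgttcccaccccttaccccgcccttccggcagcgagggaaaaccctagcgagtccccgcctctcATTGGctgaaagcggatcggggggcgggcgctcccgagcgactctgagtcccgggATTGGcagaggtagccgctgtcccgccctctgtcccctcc

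Of 19 LXR target and lipid storage genes 5 rose (26.3%) and 2 fell (10.5%), near the 19.1% and 20.5% of all genes, or 5 and 4 with the replicate block, and the median of -0.02 turned to 0.08 without TMM scaling. Fabp5, a fatty acid-binding protein, was at 1028, 1060, 1044 and 1199 CPM at 12 h and 1930, 1711, 1878 and 2263 CPM at 24 h and rose by 0.84 ± 0.10 (edgeR adjusted p = 2.55e-07). Hilpda, a lipid droplet protein that inhibits lipolysis, was at 88.5, 89.6, 87.4 and 111 CPM and then 307, 236, 193 and 209 CPM and rose by 1.33 ± 0.11. Fabp4 rose by 0.58 ± 0.13 with overlapping groups. Eicosanoid genes were mixed, with 6 of 15 lower (40%) and 4 higher (26.7%), beside 20.5% and 19.1% of all genes. Pla2g4a, the phospholipase that releases arachidonic acid, fell by 1.29 ± 0.10, whereas Lta4h, leukotriene A4 hydrolase, rose by 1.28 ± 0.11, Pla2g7 by 0.95 ± 0.14 and the prostacyclin receptor Ptgir by 0.68 ± 0.09.

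Messenger RNAs of cytosolic ribosomal proteins fell in 37 of 46 cases (80.4%, beside 20.5% of all genes), while 9 did not pass and 0 rose. Their median was -0.35, and 29 fell without TMM scaling. Rpl10a was at 194, 194, 203 and 214 CPM at 12 h and 117, 101, 128 and 119 CPM at 24 h and fell by 0.79 ± 0.08 (edgeR adjusted p = 1.72e-08). Rps4x fell by 0.55 ± 0.07 and Rpl8 by 0.53 ± 0.07. Pseudogenes of these genes can take or share tags. Ribosome biogenesis factors gave 4 falls and 1 rise among 29, a split that became 0 falls and 5 rises without TMM scaling, so no direction is given for them. Of the named members, Nop14 rose by 0.36 ± 0.10 and kept its call, while the falls of Wdr43, Npm1 and Ddx21 each lost their call without TMM scaling and when 12 h replicate 1 was left out. For Npm1 leaving out 12 h replicate 4 or 24 h replicate 2 or 3 did so too, and for Ddx21 24 h replicate 3 or 4.

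Stress-response genes gave more falls than rises in the endoplasmic reticulum and ATF4 lists. Of 21 genes for folding and stress in the endoplasmic reticulum 7 fell (33.3%, beside 20.5% of all genes) and 0 rose. Their median of -0.08 turned to 0.02 without TMM scaling, when 4 fell and 3 rose. Sel1l fell by 0.51 ± 0.07, Herpud1 by 0.39 ± 0.10, Sec61b by 0.37 ± 0.10 and the chaperone Hspa5 by 0.33 ± 0.07. Of 19 ATF4 targets 6 fell (31.6%) and 3 rose (15.8%), beside 20.5% and 19.1% of all genes. Phgdh, the entry enzyme of serine synthesis, was at 14.2, 19.8, 18.6 and 18.2 CPM at 12 h and 3.86, 5.66, 6.27 and 6.57 CPM at 24 h and fell by 1.65 ± 0.15 (edgeR adjusted p = 5.04e-09). Psat1, the next enzyme, was at 67.0, 76.4, 85.1 and 86.0 CPM and then 34.7, 30.1, 34.6 and 34.5 CPM and fell by 1.23 ± 0.10. Atf4 itself fell by 0.63 ± 0.09, whereas Ddit4, an inhibitor of mTORC1, rose by 1.88 ± 0.33. Of 20 NRF2 targets 4 fell (20%) and 2 rose (10%), not above the 20.5% and 19.1% of all genes, with a median of 0.10 opposite in sign to the counts. With the replicate block 4 rose, and without TMM scaling 5 rose. Txnrd1 fell by 0.58 ± 0.12, Pgd by 0.49 ± 0.10 and Tkt by 0.34 ± 0.09, and Prdx6 rose by 0.47 ± 0.09.

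Metal-binding and metal-transport genes fell in 12 of 20 cases (60%) and rose in 5 (25%), beside 20.5% and 19.1% of all genes, with a median of -0.34. Mt2, a metallothionein, was at 80.9, 128, 128 and 142 CPM at 12 h and 30.1, 29.4, 33.1 and 35.7 CPM at 24 h and fell by 1.90 ± 0.20 (edgeR adjusted p = 9.89e-07), from a mean of 715 CPM at 6 h to under the 161 CPM of 0 h. Its relative Mt1 fell by 1.46 ± 0.15. Slc30a4, a zinc exporter, fell by 1.32 ± 0.14, and Tfrc, the transferrin receptor that imports iron, was at 69.5, 58.5, 64.6 and 56.4 CPM and then 31.6, 29.4, 26.0 and 39.7 CPM and fell by 0.99 ± 0.13. The 5 members that rose were the ferritin genes Fth1 and Ftl1, by 0.36 and 0.39, with Ncoa4, Slc11a1 and Steap3, by 0.51 to 0.67.

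Of the 30 mitosis genes 29 had been called lower early, beside 40% of all genes. Of 30 mitosis genes 9 fell and 3 rose, and of 30 DNA replication genes 7 fell and 2 rose, with medians of -0.16 and -0.14, beside 20.5% lower and 19.1% higher among all genes. Without TMM scaling 5 mitosis genes rose. Ccnb2, cyclin B2, was at 3.27, 4.67, 5.32 and 4.04 CPM at 12 h and 0.482, 0.679, 1.25 and 0.939 CPM at 24 h and fell by 2.29 ± 0.36, and Ube2c, a ubiquitin-conjugating enzyme of mitosis, fell by 1.62 ± 0.28. Tpx2 fell by 0.52 ± 0.11. Cenpa, the centromere histone, rose from 12.0, 14.6, 21.6 and 14.2 CPM to 41.2, 29.0, 45.9 and 42.2 CPM, by 1.31 ± 0.17 (edgeR adjusted p = 3.33e-06). Of the replication genes Mcm10 fell by 0.98 ± 0.17, Mcm6 by 0.42 ± 0.09 and Cdc6 by 1.00 ± 0.25, while Pcna, the sliding clamp, rose by 0.44 ± 0.07.

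Targets of p53 and genes of the circadian clock rose more often than they fell. Of 19 p53 targets 9 rose (47.4%) and 3 fell (15.8%), beside 19.1% and 20.5% of all genes. Their median was 0.28, and 1 fell without TMM scaling. Bbc3, which encodes the death factor PUMA, was at 40.6, 38.8, 36.2 and 39.4 CPM at 12 h and 95.8, 86.5, 101 and 100.2 CPM at 24 h and rose by 1.31 ± 0.09 (edgeR adjusted p = 1.27e-11). Trp53inp1 was at 15.8, 15.4, 17.3 and 12.6 CPM and then 55.2, 44.1, 50.6 and 49.3 CPM and rose by 1.69 ± 0.14, and Ccng1, cyclin G1, rose by 0.72 ± 0.07. The 3 members that fell were Fas, Tigar and Mdm2, by 0.72, 0.49 and 0.20 in log2 units. Of 17 clock genes 9 rose (52.9%) and 1, Nr1d2, fell, with a median of 0.39. Per2, a repressor in the clock's feedback loop, was at 3.81, 6.05, 6.48 and 6.07 CPM and then 14.7, 13.1, 19.8 and 15.7 CPM and rose by 1.49 ± 0.23 (edgeR adjusted p = 1.33e-05). Per1 rose by 1.14 ± 0.16, Cry1, the partner of the period proteins, by 1.02 ± 0.17 and the nuclear receptor Rora by 1.25 ± 0.13. The labels used here do not give the hour of the day at which cells were collected.

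**Figure D4:**
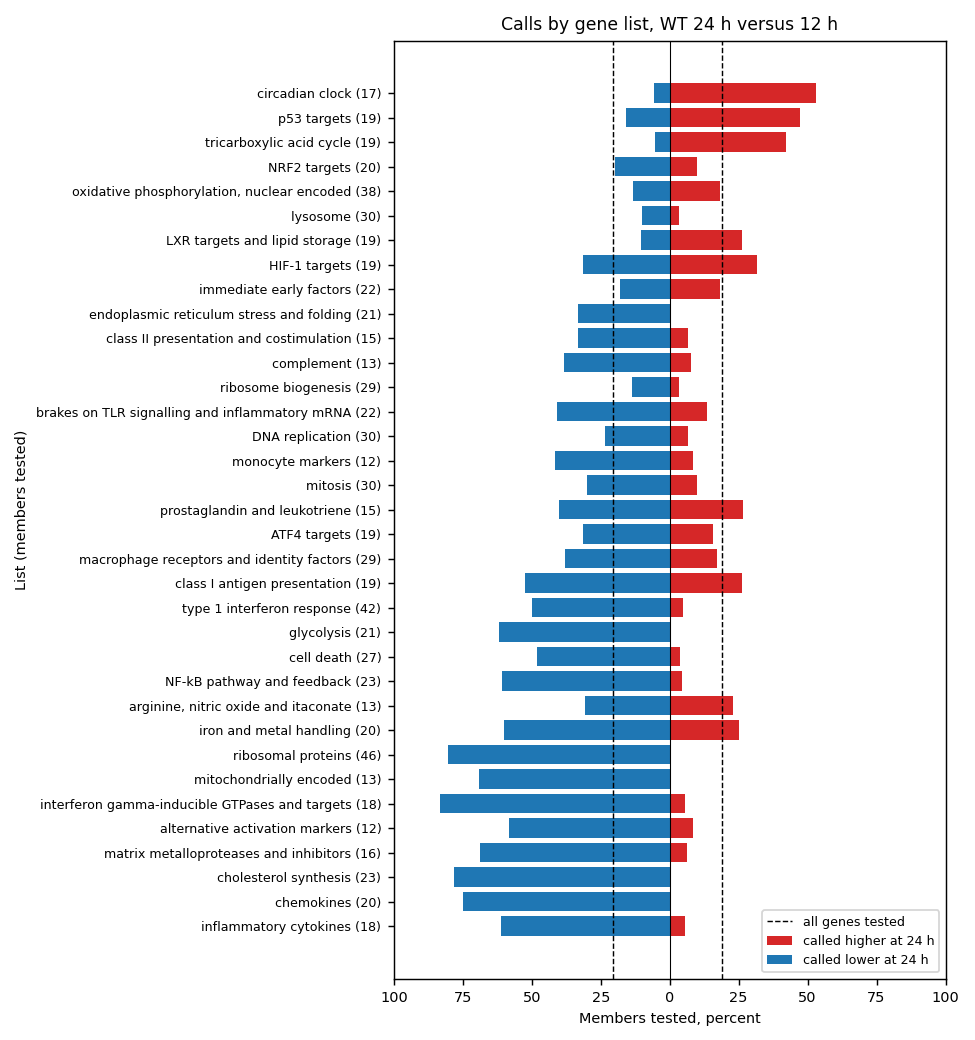
Share of tested members called higher (red, to the right) and called lower (blue, to the left) at 24 h against 12 h in WT for the 35 lists with at least 10 tested members, ordered by median log2 fold change, with the number tested in brackets. Dashed lines mark 19.1% higher and 20.5% lower among all genes tested; clock, p53 and tricarboxylic acid cycle lists pass the right line and cytokine, chemokine, cholesterol and ribosomal protein lists the left one.

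Matrix-degrading enzymes and their inhibitors mostly fell. Of 16 metalloprotease and inhibitor genes 11 fell (68.8%, beside 20.5% of all genes) and 1, Adam8, rose by 0.48, with a median of -0.78. Mmp13, a collagenase, was at 987, 914, 928 and 873 CPM at 12 h and 249, 214, 204 and 207 CPM at 24 h and fell by 2.08 ± 0.11 (edgeR adjusted p = 1e-12). Mmp25 was at 122, 108, 124 and 98.3 CPM and then 32.8, 35.1, 40.8 and 34.5 CPM and fell by 1.65 ± 0.10, and Mmp8 fell by 0.72 ± 0.08. Of 27 cell death genes 13 fell (48.1%) and 1, Bcl2, rose by 0.80 ± 0.12, while 2 rose without TMM scaling. Tnfsf10, which encodes the death ligand TRAIL, fell by 1.57 ± 0.16 and Casp1, the inflammasome protease, by 0.52 ± 0.08. Among 29 macrophage receptors and identity factors 11 fell (37.9%) and 5 rose (17.2%, or 3 genes with DESeq2 size factors), with a median of -0.21. Tlr2, a receptor for bacterial lipopeptides, was at 78.4, 88.0, 74.3 and 72.5 CPM and then 31.1, 31.0, 29.0 and 31.4 CPM and fell by 1.35 ± 0.10 (edgeR adjusted p = 1.71e-10). Gas6, a ligand of receptors that clear dying cells, fell by 1.00 ± 0.12, the transcription factor Maf by 0.82 ± 0.09 and the scavenger receptor Stab1 by 0.70 ± 0.08.

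Complement genes fell more often than all genes, and lysosome genes gave few calls. Of 13 complement genes 5 fell (38.5%, beside 20.5% of all genes) and 1, C1qa, rose by 0.36, with a median of -0.10 that turned to 0.00 without TMM scaling. Itgax, a complement receptor subunit, fell by 0.81 ± 0.23 and C1ra by 0.64 ± 0.10. Cfb, a protease of the alternative complement pathway, was at 731, 922, 698 and 686 CPM at 12 h and 599.8, 606, 604 and 525 CPM at 24 h and fell by 0.38 ± 0.11, a call lost without 12 h replicate 2 (edgeR adjusted p = 0.0606). Of 30 lysosomal genes 3 fell and 1 rose, both under the background, and 1 fell and 9 rose without TMM scaling. With the replicate block 5 fell and 3 rose. Glb1, a galactosidase, fell by 0.40 ± 0.08 and the sialidase Neu1 rose by 0.24 ± 0.07. Falls of Gusb and Hexa were lost without 12 h replicate 1 and without TMM scaling, and that of Hexa also without 12 h replicate 2 or 24 h replicate 2 or 3.

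Markers of other cell types that a marrow culture could hold were lower at 24 h in several lists, and their part in the results above was not tested. The summed level of 14 monocyte markers ran from 1017 to 1138 CPM at 12 h and from 553 to 660 at 24 h, with 5 of 12 tested members lower, 1 higher and a median of -0.15. The fall of the sum was carried mainly by Vcan and S100a4. Vcan, a matrix proteoglycan, was at 216, 272, 241 and 241 CPM and then 42.2, 69.7, 56.0 and 53.5 CPM and fell by 2.13 ± 0.14, F13a1 fell by 2.22 ± 0.22 and S100a4 by 0.70 ± 0.07. Plac8 rose by 0.71, and the monocyte markers Ly6c2 and Ccr2 had log2 fold changes of 0.24 and 0.14 that did not pass. The 14 neutrophil markers summed to 220 to 267 CPM at 12 h and 158 to 174 CPM at 24 h, with 3 of 6 tested members lower, and the defining markers Ly6g and Retnlg were at 0 in all 8 libraries. Most of the fall of this sum was Mmp8, also counted among the metalloproteases, at 123 to 153 CPM at 12 h and 78.1 to 86.4 CPM at 24 h. S100a8 fell by 0.39 ± 0.11 with overlapping groups, and the fall of Csf3r was lost without 12 h replicate 3 and without TMM scaling. The 12 dendritic cell markers summed to 280 to 357 CPM at 12 h and 288 to 349 at 24 h, with 2 of 6 lower, Clec9a by 1.98 ± 0.49 and Fscn1 by 0.68 ± 0.21 in log2 units. Most of this sum was Bst2, at 241 to 319 CPM at 12 h and 258.5 to 315 CPM at 24 h.

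Other lineages gave low sums or sums carried by 1 gene. The 15 stromal and endothelial markers summed to 150 to 208 CPM at 12 h and 100 to 141 at 24 h, with 3 of 5 tested members lower. Kdr, a receptor for VEGF, fell by 0.57 ± 0.12 with overlapping groups, Cdh5 fell by 2.35 ± 0.48 and Vwf by 0.78 ± 0.21. The 11 mast cell and basophil markers summed to 146 to 182 CPM at 12 h and 28.9 to 49.5 at 24 h, nearly all of it Hdc, histidine decarboxylase, which fell by 2.07 ± 0.11. The granule markers Cma1, Cpa3, Mcpt4, Mcpt8 and Tpsb2 and the receptor gene Fcer1a were at 0. Lymphoid markers summed to 396 to 507 CPM at 12 h and 337 to 429 at 24 h, nearly all Il7r, with Cd3g and Cd79a at 0. The red cell and platelet precursor list summed to 594 to 804 CPM and then 434 to 553 CPM, nearly all Pf4, with Alas2, Gata1 and Gp1ba at 0. Calls of Il7r and Pf4 were lost without 12 h replicate 2 or 4 or 24 h replicate 1 or 3, that of Pf4 also without 24 h replicate 2, and that of Ppbp without replicate 3 of either time. Those of Il7r and Pf4 were also lost without TMM scaling. Osteoclast markers summed to 307 to 329 CPM at 12 h and 264 to 298 at 24 h, with 4 of 8 tested members lower (2 without TMM scaling) and 1 (2 with the replicate block), Nfatc1, higher by 0.61 ± 0.12. Ctsk, a bone-degrading protease, fell by 1.11 ± 0.20, and the falls of Dcstamp and Tnfrsf11a were lost without 12 h replicate 1, and that of Tnfrsf11a also without 12 h replicate 2 or 24 h replicate 3 or 4 and without TMM scaling.

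Promoter windows were searched for 8 motifs on both strands, as a description with no test. Of the 12151 genes tested, 8802 had a window in the RefSeq table. The interferon response motif GAAANNGAA was in 7.67% of all 8802 windows, in 9.58% of windows of genes called lower, in 6.09% of those called higher and in 11.5% of those of early higher genes that fell. In the lists it was in 19 of 31 windows of the type I interferon genes and in 9 of 12 of the interferon gamma-inducible genes. The NF-kB motif was in 9.99% of all windows, in 11.1% of the called lower, 10.5% of the called higher and 12.9% of the early higher genes that fell, and in 10 of 19 windows of the NF-kB list. The NF-Y motif CCAAT was in 39.3% of all windows and in 15 of 16 of the cholesterol synthesis list, where the sterol motif TCACNCCAC was in 1 of 16, beside 0.99% of all. The AP-1 motif TGANTCA was in 4.99% of all windows, 7.05% of the called lower and 4.63% of the called higher. The STAT motif TTCNNNGAA was in 6.88%, 7.16% and 6.49% of the same 3 sets, the cell cycle motif TTTGAA in 12.2%, 11.1% and 12.5%, and the ATF4 motif TGATGNAA in 2.33%, 2.31% and 2.37%. Among the lists, the STAT motif was in 6 of 31 windows of the type I interferon genes and 8 of 12 of the interferon gamma-inducible genes. The ATF4 motif was in 4 of 17 windows of the ATF4 targets. The STAT, cell cycle and interferon motifs can overlap, since each holds or ends in GAA.

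The step was also measured in the libraries labelled KO, which share no library with WT. Otulin, as CPM of library totals, was at 29.6, 32.3, 24.8 and 33.6 in the 4 KO libraries at 12 h and 51.3, 45.8, 46.5 and 51.9 at 24 h, beside 31.9, 31.4, 29.9 and 31.8 and 37.1, 36.1, 29.8 and 28.4 in WT. At 12 h the groups overlapped, with replicates 1 and 3 labelled KO below all 4 WT libraries, and at 24 h all 4 libraries labelled KO lay above all 4 of WT. A 3′ tag outside the deleted exons does not check a deletion, and no source used here gives the exons flanked by loxP, so the label was not checked by these values. In these libraries 12037 genes were tested, and 2176 (18.1%) were higher and 2260 (18.8%) lower at 24 h than at 12 h. Of 11875 genes tested in both genotypes, 3399 were called in both, which is 71.6% of the WT calls and 77.1% of the KO calls, and 3398 of these had the same direction. Edn1 fell by 3.32 ± 0.21 in KO, beside 3.50 in WT, Tnf by 1.85 ± 0.10, beside 1.83, and Cyp51 by 1.61 ± 0.12, beside 1.57, on the log2 scale. Phlda3 had a log2 fold change of 2.63 ± 0.29 in KO and 2.47 in WT. The difference of the step between genotypes was called for 0 of 11486 genes (0.0%) in edgeR over the 16 libraries, where 373 had an unadjusted p under 0.05 and the lowest adjusted p was 0.44. DESeq2's Wald test called 1 gene, Vegfa, whose rise was smaller in KO, with a difference of -0.73 ± 0.14 on the log2 scale (edgeR adjusted p = 0.44; DESeq2 adjusted p = 0.0215). Some list medians differed in sign between genotypes. DNA replication had a median of -0.14 in WT and 0.43 in KO, mitosis -0.16 and 0.20, and ribosome biogenesis -0.11 and 0.30, and the difference of the lists was not tested. Otulin was called in 1 group and not the other, with a log2 fold change of 0.58 ± 0.11 in KO and -0.03 ± 0.11 in WT. The difference itself was 0.59 ± 0.16 (edgeR unadjusted p = 0.00167). It did not pass adjustment over the 11486 genes (edgeR adjusted p = 1.0), which does not show that the steps were equal. The groups labelled KO differ from WT by the Cre transgene as well as by the deletion it is meant to make, which cannot be told apart.

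**Figure D5:**
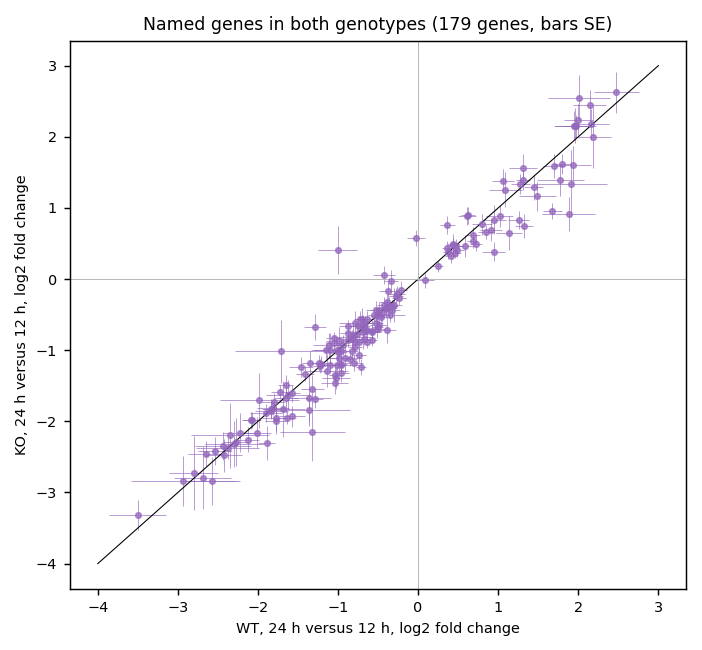
Log2 fold changes at 24 h against 12 h in WT (horizontal) and KO (vertical) for the 179 named genes, with SE bars on both axes and the line of equality. The WT values run from -3.50 for Edn1 to 2.47 for Phlda3, and points well off the line include Otulin, at -0.03 in WT and 0.58 in KO, and Vegfa, at 1.67 and 0.95.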

How the data were processed

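RNA of 40 libraries was read by 3′ tag sequencing. The authors deposited RSEM expected counts per gene, which were all whole numbers, and per the submitters' processing notes used the build GRCm39, STAR 2.7.10a, RSEM 1.3.3, UMI-tools 1.1.2, cutadapt 3.7 and FastQC 0.11.9. No source used here gives their settings. Of 57010 gene IDs, 52029 had a symbol in GENCODE vM21 (GRCm38), and all 908 entries of 42 gene lists matched.

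The main test was edgeR 4.0.16's quasi-likelihood test (R 4.3.3, limma 3.58.1) with robust fitting, TMM scaling, filterByExpr at a minimum count of 10 and Benjamini-Hochberg adjustment at 0.05, two-sided, over the 20 WT libraries, which share 1 estimate of the spread. CPM use TMM-scaled totals, SE is the log2 fold change divided by the root of F, and a value after ± is an SE unless it is called an SD. The genotype difference used 16 libraries. DESeq2 1.42.0 was an alternative. Scripts were tested on simulated counts.

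Deviations from the group means correlated at 0.14 to 0.48 between same-numbered 12 h and 24 h libraries and at -0.30 to 0.06 otherwise, so same-numbered libraries resembled each other. The main test did not use this pairing. The replicate block did, and called 2572 genes higher and 2733 lower. Pairs of replicates of a group differed beyond sampling noise (chi-square per degree of freedom 3.31 to 9.11). The labels call the replicates biological without naming the animals, so p-values measure the spread between these samples. Those of the main test treat same-numbered libraries as unpaired.

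Named genes were 9 fixed ones, the 10 highest and 10 lowest called genes without overlap whose mean was 5 CPM or more, the 5 largest falls of early higher genes and the 5 largest rises with no early call, and up to 4 called members of each list by smallest p. Gene models with Gm or Rik names, no symbol or pseudogene status were not named, and a few genes that meet the rule are not reported here. List members named as exceptions, and the markers at 0, were chosen after their values were seen. The members and lists were chosen with earlier results of these data known. Promoter windows came from RefSeq (GRCm38.p6), the first listed per symbol. Alternatives covered scaling, filtering, the test, the libraries fitted, a replicate block and left-out replicates.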

Additional observations from a re-analysis of the deposited data

Results flagged for a closer look

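The check for outlying libraries covered 60 groups of 4 libraries, which is only part of the 179 named genes. In 1 of these 60 groups, 1 library stood apart from the other 3, where chance flags about 1 in 20 groups. Angpt1 was at 0.724, 0.679, 3.14 and 0.469 CPM in the 24 h libraries, where replicate 3 at 3.14 CPM stood apart. Its call held without that library.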

How the results depend on the processing

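The 2317 higher and 2493 lower genes became 3152 and 1852 with library totals in place of TMM scaling, 2178 and 2601 with DESeq2 size factors, 2154 and 2516 without a filter, 2337 and 2467 with voom, 2038 and 2526 with DESeq2, 2007 and 2156 over the 8 libraries alone and 2172 and 2378 over 40. With the replicate block they were 2572 and 2733, and apart from list counts given above the block changed no call of a named gene. Without 1 library they ran from 1999 to 2258 and from 2171 to 2389, and without 1 replicate number from 1617 to 2136 and from 1891 to 2330.

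The counts by early class depended on scaling and on the size asked of the early response. Without TMM scaling, 943 early higher genes fell and 238 rose, 2632 early lower genes rose and 673 fell, and 238 genes with no early call rose and 196 fell. With an early change past 2-fold the same 6 counts were 995, 134, 745, 162, 1437 and 1335. Leaving out replicates gave 229 to 397 early higher genes that rose and 260 to 391 early lower genes that fell. The fit over 8 libraries gives no early classes. The cause was not tested. Of the named genes 10 lost their call without TMM scaling and none reversed under any alternative. The genotype difference, called for 0 genes in edgeR, was called for 0 without each of 16 libraries (276 to 681 at an unadjusted p under 0.05) and for 1 in DESeq2, both alternatives chosen after seeing the data. At these depths, calls of genes under about 5 CPM rest on few counts.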
